A study of Mus musculus with 16 samples.

Results

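The cell cycle and DNA replication genes described here are 46 genes that drive cells from G1 through S phase and mitosis, 42 of which had a row of their own among the 30704 genes measured. The genes were chosen by name, and each was taken from the array row with its platform symbol, using the row with the highest mean where there were several. Of the 42 measured members, 17 act at the G1/S boundary and in DNA replication, 24 act in G2 and mitosis, and Ccnd2, a D cyclin of G1, belongs to neither class. Mcm7, Foxm1 and Ccnd1 lay on rows that list several genes and Ccnb1 had no listed row, so these 4 have no value here.

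Proximal colon mucosa of male C57BL/6J mice gave the RNA for Affymetrix arrays, and the values are log2 expression, so that a difference of 1 is a doubling. All animals carried both Mcc alleles floxed (Mccf/f). Mcc takes its name from mutations found in tumours of the colon and rectum. The siblings without Cre are called WT, and those with a Villin-cre transgene (VILcreMccf/f), which removes Mcc from epithelial cells of the intestine, are called KO. Diets began at 6 weeks of age and lasted 10 weeks. There were 6 WT and 3 KO arrays from mice fed a control diet, and 3 WT and 4 KO arrays from mice fed sulindac at 320 ppm, an anti-inflammatory drug of the non-steroidal class. From sulindac-fed mice only inflamed areas were taken, called lesions here, and from control-fed mice the corresponding normal mucosa. Drug and inflamed tissue therefore cannot be told apart.

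Colon epithelium is renewed by stem and progenitor cells that divide in the lower crypt and lose cell cycle transcripts as they differentiate. S-phase genes are switched on by E2F factors when the retinoblastoma proteins are phosphorylated, and their products license origins, unwind DNA and supply nucleotides. Genes of G2 and mitosis are held down in resting cells by the DREAM complex and switched on later by Mybl2 and Foxm1, often through a CCAAT box and a cell cycle genes homology region (CHR). In tissue RNA, fewer dividing cells and less of a transcript in each dividing cell cannot be told apart.

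The split between S-phase and mitotic members has a counterpart in their promoters, which are shown because the comparison of these classes runs through all results. RefSeq promoters of GRCm38.p6, from 250 bases before the start to 50 after it, were on hand for 33 members, as 14 S-phase and 21 mitotic entries, since Uhrf1 and Prc1 had 2 each. The lines below give the stretch from 250 bases before to 30 bases after the start, 5′ to 3′ on the strand of the gene. Kif23 lies at chr9:61946770-61947049 on the minus strand, Top2a at chr11:99024160-99024439 on the minus strand, Mcm5 at chr8:75109259-75109538 on the plus strand and Mcm6 at chr1:128359676-128359955 on the minus strand. Capitals mark matches on either strand to CHR (TTTGAA or TTCGAA), to CCAAT and to E2F sites (TTTCCCGC, TTTCGCGC, TTTGCCGC or TTTGGCGC).
Kif23: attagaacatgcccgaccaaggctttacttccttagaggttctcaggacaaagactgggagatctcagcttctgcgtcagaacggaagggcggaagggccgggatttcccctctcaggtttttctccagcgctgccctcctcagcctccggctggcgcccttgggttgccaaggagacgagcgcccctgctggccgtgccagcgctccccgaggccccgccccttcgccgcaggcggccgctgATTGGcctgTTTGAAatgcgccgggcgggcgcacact
Top2a: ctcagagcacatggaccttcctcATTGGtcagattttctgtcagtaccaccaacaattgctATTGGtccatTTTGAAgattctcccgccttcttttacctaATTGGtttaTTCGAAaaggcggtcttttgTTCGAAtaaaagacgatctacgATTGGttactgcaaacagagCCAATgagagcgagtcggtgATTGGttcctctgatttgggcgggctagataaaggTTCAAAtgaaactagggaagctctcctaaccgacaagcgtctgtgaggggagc
Mcm5: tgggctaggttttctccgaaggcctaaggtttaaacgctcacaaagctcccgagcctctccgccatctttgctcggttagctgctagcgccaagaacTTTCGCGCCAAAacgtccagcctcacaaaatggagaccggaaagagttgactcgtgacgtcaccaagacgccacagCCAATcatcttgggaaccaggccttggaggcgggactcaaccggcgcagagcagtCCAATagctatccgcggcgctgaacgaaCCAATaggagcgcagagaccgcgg
Mcm6: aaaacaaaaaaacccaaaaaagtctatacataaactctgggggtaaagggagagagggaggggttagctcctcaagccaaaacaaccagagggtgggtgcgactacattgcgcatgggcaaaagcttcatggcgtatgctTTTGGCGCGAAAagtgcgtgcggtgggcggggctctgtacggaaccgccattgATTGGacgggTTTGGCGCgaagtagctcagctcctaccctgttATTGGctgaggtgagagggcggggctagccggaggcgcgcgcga
In Kif23 a CCAAT match on the opposite strand and a CHR match lie next to the start, and Top2a holds 6 CCAAT and 4 CHR matches. Mcm5 and Mcm6 have no CHR match, and each has 1 pair of E2F matches on opposite strands that overlap by 4 bases, with a further single match in Mcm6. CHR matches were present in 17 of 21 mitotic promoters (81.0%), in 1 of 14 S-phase promoters (7.14%) and in 19.2% of all 32851 promoters of that length. E2F matches were present in 1 of 21 mitotic promoters (4.76%), in 6 of 14 S-phase promoters (42.9%) and in 2.26% of all. CCAAT matches were present in 18 of 21 mitotic (85.7%) and 9 of 14 S-phase promoters (64.3%), against 37.4% of all.

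Mcc lay between 7.06 and 7.40 in the 9 WT arrays and between 6.39 and 6.71 in the 7 KO arrays. Means over 7 epithelial markers, a check of the labelled tissue, lay between 11.3 and 11.8 in all 16 arrays. A number in each sample description falls into a lower series or a higher series, with a wide gap between them. WT controls 1, 2 and 3 and every lesion are in the lower series, and WT controls 4, 5 and 6 and every KO control are in the higher one. The series touches every member result that uses control arrays: WT controls of the higher series were all above those of the lower series in 28 of 42 members (21 mitotic, 7 S-phase), against 9.1% of all genes. Whether a series marks a cohort is not stated, so it is given beside the results as a number series only. The labels do not say whether arrays come from separate animals, and the p-values measure only the spread between these arrays. All 42 members had means above 4.96, the median of all rows.

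**Figure D1:**
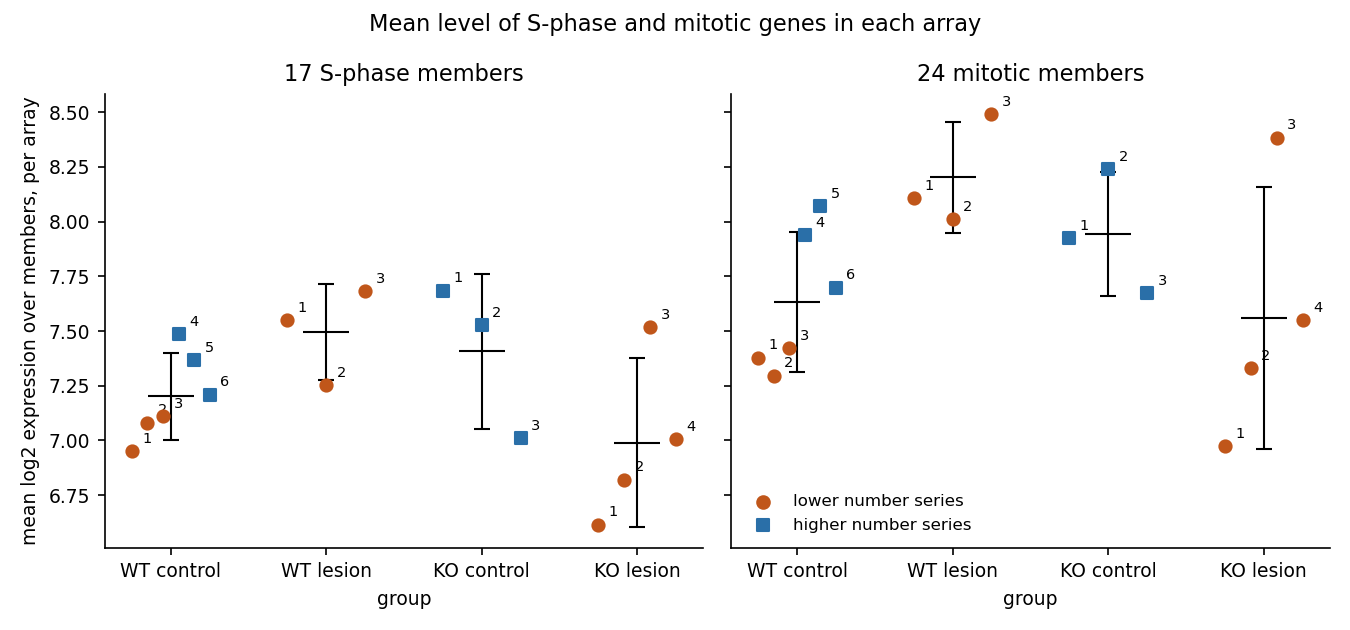
Mean log2 expression over the 17 S-phase members (left) and the 24 mitotic members (right) in each array, by group; bars give the group mean and SD, numbers the replicate, and circles and squares the lower and higher number series. KO lesion 3 is the highest KO lesion in both panels, and the WT controls of the lower series are the lowest WT arrays in both.

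In WT lesions the mitotic members were on average higher than in WT controls, the S-phase members less so, and 6 members passed the test. The mean over the 24 mitotic members was 7.63 ± 0.32 (SD, n = 6) in controls and 8.20 ± 0.25 (SD, n = 3) in lesions, and the mean over the 17 S-phase members was 7.20 ± 0.20 (SD, n = 6) and 7.49 ± 0.22 (SD, n = 3). In limma's test across all genes, 6 of 42 members rose at an adjusted p under 0.05 and 0 fell, while 6.98% of all genes rose and 8.37% fell by the same rule. The 6 were Kif23, Cenpe, Top2a, Mybl2, Cdca8 and Gins1, of which only Gins1 is an S-phase member. Of the 42 log2 differences 41 were above 0, against 35.4% of all genes. Their median was 0.55 in mitotic and 0.21 in S-phase members, beside -0.06 over all genes. The S-phase median was 0.14 without WT lesion 3 and 0.36 without WT lesion 2. Lesion arrays were all above control arrays in 9 of 42 members, against 8.15% of all genes.

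Among the genes of the central spindle and cytokinesis, Kif23, a motor that bundles microtubules between the separating chromosomes, rose most clearly. Its log2 level was 7.38 at the lowest, 7.62 at the median and 8.22 at the highest of 6 WT controls, and 8.60, 8.72 and 9.04 in the 3 WT lesions. All lesions exceeded all controls, and the lowest 3 controls were those of the lower series. The difference was 1.05 ± 0.23 (SE), a 2.08-fold rise (limma, adjusted p = 0.0052). Prc1, which crosslinks the same midzone microtubules, and Kif20a differed by 0.64 ± 0.29 (SE, adjusted p = 0.16) and 0.49 ± 0.32 (SE, adjusted p = 0.34). Both rose when lesions were paired with WT controls 1 to 3 by replicate number, by 1.01 (limma, adjusted p = 0.0067) and 0.82 (adjusted p = 0.0077). The same arrays without that pairing, which the labels do not state, gave adjusted p of 0.055 and 0.19 (limma).

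Among kinetochore genes, Cenpe, the motor that carries chromosomes to the spindle equator, had levels of 7.04, 7.43 and 7.92 (lowest, median and highest of the WT controls) and 8.10, 8.69 and 8.97 in lesions. The groups did not overlap, and the rise was 1.10 ± 0.34 (SE, limma adjusted p = 0.040). Cdca8, a subunit of the chromosomal passenger complex, had levels of 6.71, 6.86 and 7.17 in the same order in controls and 7.39, 7.22 and 7.43 in lesions. It rose by 0.42 ± 0.13 (SE, adjusted p = 0.045), again with no overlap. Its partners in that complex, Birc5 and Aurkb, were 0.31 higher each, with adjusted p of 0.27 and 0.43. They rose by 0.56 and 0.59 when paired (limma, adjusted p of 0.011 and 0.018). Without the pairing the same arrays gave adjusted p of 0.096 and 0.15 (limma).

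Top2a, the enzyme that untangles sister chromatids, lay at 8.28, 8.61 and 9.08 in controls (lowest, median, highest) and at 9.48, 9.39 and 9.86 in lesions. It rose 1.88-fold (0.91 ± 0.28, SE, adjusted p = 0.037), and every lesion was above every control. Mybl2, the activator of G2 genes, lay at 6.37, 6.54 and 6.56 in controls and at 7.13, 6.69 and 7.22 in lesions. Its rise was 0.52 ± 0.16 (SE, adjusted p = 0.036), and its controls hardly varied (SD 0.08). Mki67, the gene of the proliferation marker Ki-67, lay at 10.08, 10.41 and 10.59 in controls and at 10.93, 10.96 and 11.37 in lesions. The groups were again apart, while its difference of 0.71 ± 0.26 (SE) had an adjusted p of 0.082. When paired, it rose by 0.70 (limma, adjusted p = 0.019). The same arrays without the pairing gave an adjusted p of 0.21 (limma).

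Among replication genes, Gins1, a subunit of the GINS complex that activates the replicative helicase, lay at 4.99, 5.36 and 5.87 in controls and at 6.08, 5.93 and 6.25 in lesions. It rose by 0.67 ± 0.20 (SE, adjusted p = 0.036), with no overlap. Gins2 of the same complex differed by 0.01 ± 0.11 (SE). Rrm2, the small subunit of ribonucleotide reductase, lay at 6.72, 7.42 and 8.08 in controls and at 8.22, 7.90 and 8.53 in lesions. WT lesion 2 lay within the controls, and the difference of 0.83 ± 0.31 (SE) had an adjusted p of 0.087, and was 1.23 when paired (limma, adjusted p = 0.0034). The helicase subunit Mcm4 lay at 7.20, 7.56 and 7.69 in controls and at 8.01, 7.79 and 8.42 in lesions, a difference of 0.54 ± 0.24 (SE, adjusted p = 0.16) that was 0.63 when paired (limma, adjusted p = 0.039). Differences of the other measured helicase subunits ranged from 0.20 for Mcm2 to 0.48 for Mcm3. Groups overlapped in the next 3 genes. The sliding clamp Pcna lay at 8.64, 8.83 and 9.12 in controls and at 8.95, 8.94 and 9.17 in lesions, a difference of 0.19 ± 0.17 (SE). Ccnd2 lay at 8.84, 9.23 and 9.55 in controls and at 8.95, 9.25 and 9.68 in lesions, a difference of 0.11 ± 0.31 (SE). Thymidylate synthase Tyms differed by 0.08 ± 0.22 (SE), and the adjusted p of these 3 were 0.51 to 0.85. When paired, Tyms rose by 0.38 (limma, adjusted p = 0.038), while Pcna and Ccnd2 did not pass (adjusted p of 0.085 and 0.30). Without the pairing the same arrays gave adjusted p of 0.015 for Rrm2, 0.20 for Mcm4 and 0.32 for Tyms (limma).

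**Figure D2:**
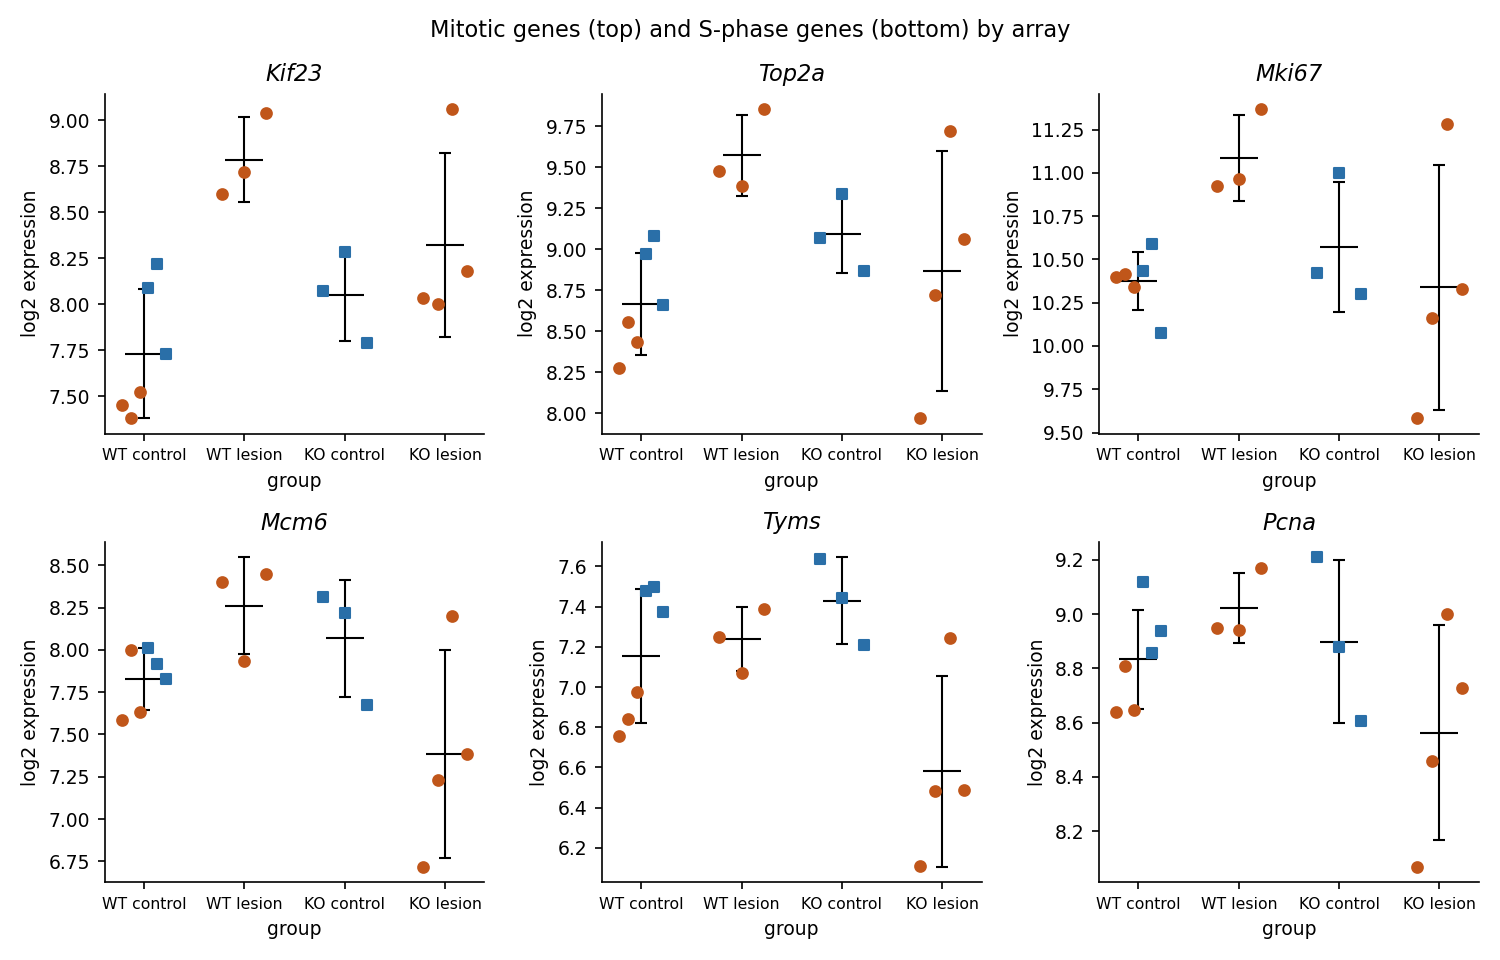
Log2 expression of 3 mitotic genes (top) and 3 S-phase genes (bottom) in every array, by group; bars give the mean and SD, and circles and squares the lower and higher number series. Kif23, Top2a and Mki67 are higher in all 3 WT lesions than in any WT control, while Tyms and Pcna overlap, and KO lesion 3 is the highest KO lesion in all 6 panels.

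The count of 6 in WT mice depended on which controls were used. With the replicate number as a block, which pairs the 3 lesions with WT controls 1 to 3, all of the lower series, 29 of 42 members rose (23 mitotic, 6 S-phase), against 8.02% of all genes, and all of the 6 were among them. With the number series as a covariate 13 rose (11 mitotic, 2 S-phase; 6.59% of all genes), and among lower-series arrays alone without the block 7 rose (5.16% of all genes), with medians of 0.81 for mitotic and 0.38 for S-phase members. In the other direction, leaving out WT control 1, WT control 2, WT control 3 or WT lesion 3 left 1 call, and leaving out WT control 6, WT lesion 1 or WT lesion 2 left 2 calls, while 10.3% to 14.5% of all genes passed in either direction. Kif23 was called in each of these. WT lesion 3 was the highest WT lesion in 37 of 42 members, against 24.6% of all genes.

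In KO mice the members lay lower in lesions than in controls on average, and only Tyms and Gins2 passed the test. KO controls had a mean over the 17 S-phase members of 7.41 ± 0.35 (SD, n = 3), and KO lesions one of 6.99 ± 0.39 (SD, n = 4). For the 24 mitotic members it was 7.94 ± 0.28 (SD, n = 3) and 7.56 ± 0.60 (SD, n = 4). In limma's test 2 of 42 members fell and 0 rose, while 12.1% of all genes fell and 8.98% rose. The median log2 difference was -0.33 in S-phase and -0.37 in mitotic members, beside 0.01 over all genes. Single arrays moved these medians. In S-phase members the median was -0.18 without KO control 1, -0.57 without KO control 3, -0.22 without KO lesion 1 and -0.53 without KO lesion 3. In mitotic members it was -0.21 without KO control 2, -0.22 without KO lesion 1 and -0.62 without KO lesion 3.

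Tyms, which makes thymidylate for DNA synthesis, lay at 7.64, 7.44 and 7.21 in KO controls and at 6.11, 6.48, 7.24 and 6.49 in KO lesions. KO lesion 3 reached the range of the controls, and the other lesions lay below it. Tyms fell by 0.85 ± 0.23 (SE, adjusted p = 0.016) on the log2 scale. Gins2 lay at 7.30, 7.16 and 6.93 in controls and at 6.69, 6.54, 6.86 and 6.65 in lesions, with no overlap, the only member of which this holds (14.5% of all genes were apart in that direction). It fell by 0.44 ± 0.12 (SE, adjusted p = 0.017). KO controls are of the higher number series and KO lesions of the lower one. Among WT controls alone, the higher series lay above the lower one without overlap in both genes. The means there differed by 0.59 for Tyms and 0.31 for Gins2.

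Mcm5 lay just outside the threshold. It was at 8.15, 8.01 and 7.25 in KO controls and at 6.61, 6.73, 7.75 and 6.92 in lesions, a difference of -0.80 ± 0.28 (SE, adjusted p = 0.052). KO control 3 and KO lesion 3 crossed, and the other arrays were apart. Pcna was at 9.21, 8.88 and 8.61 in controls and at 8.07, 8.46, 9.001 and 8.73 in lesions, a difference of -0.33 ± 0.19 (SE, adjusted p = 0.25). Ccnd2 was at 9.67, 9.58 and 8.59 in controls and at 7.83, 8.66, 9.61 and 8.88 in lesions, a difference of -0.53 ± 0.34 (SE, adjusted p = 0.32).

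Of the mitotic members, the spindle checkpoint kinase Ttk lay at 7.39, 7.68 and 7.06 in KO controls and at 5.63, 6.22, 7.504 and 6.50 in KO lesions. Its difference was -0.92 ± 0.35 (SE, adjusted p = 0.079), and KO lesion 3 alone fell within the controls. Nusap1, a microtubule-binding spindle protein, lay at 7.27, 7.62 and 7.26 in controls and at 5.63, 6.53, 7.56 and 6.44 in lesions (-0.84 ± 0.34, SE, adjusted p = 0.10). Aurkb, the kinase of the chromosomal passenger complex, lay at 7.52, 7.87 and 7.05 in controls and at 6.55, 6.53, 7.54 and 6.80 in lesions (-0.63 ± 0.26, SE, adjusted p = 0.10). In all 3 genes the lesions other than KO lesion 3 were below every control. Kif23 and Mybl2 were the only 2 of 42 members with a difference above 0, against 51.3% of all genes, at 0.27 ± 0.25 (SE) and 0.18 ± 0.17 (SE), with adjusted p of 0.53 and 0.55. Mki67 lay at 10.42, 11.001 and 10.30 in controls and at 9.58, 10.16, 11.28 and 10.33 in lesions, with overlap and an adjusted p of 0.65.

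**Figure D3:**
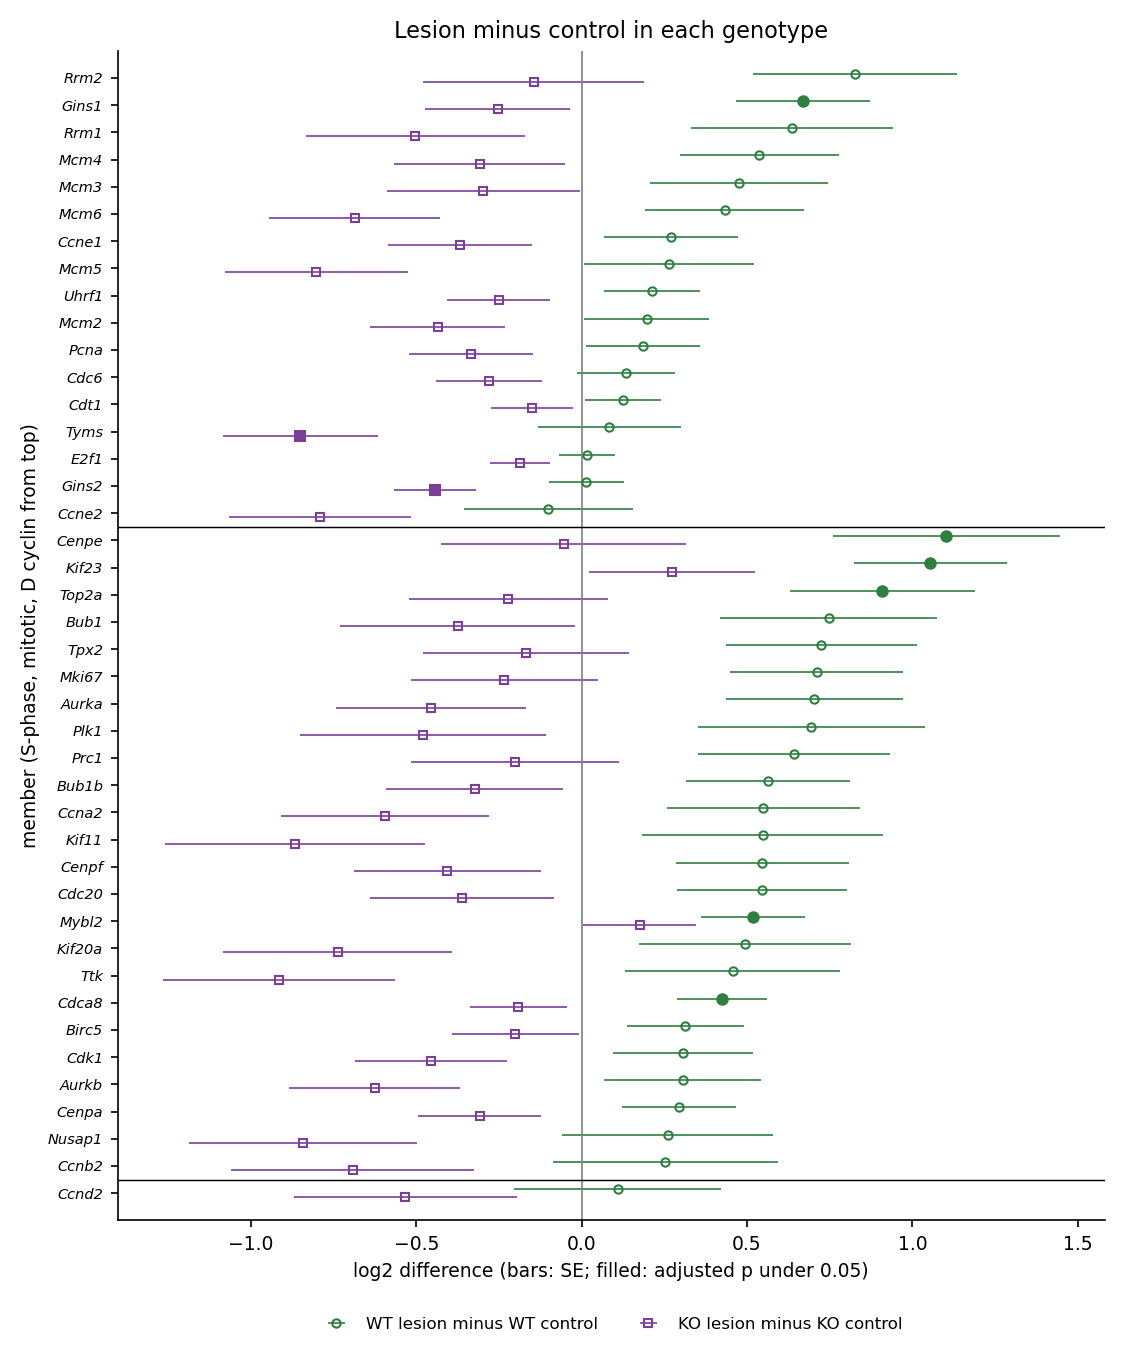
Log2 difference, lesion minus control, of the 42 members in WT (circles) and KO (squares); bars are SE and filled symbols passed an adjusted p under 0.05. In WT 6 symbols are filled, 5 of them mitotic, and in KO the 2 filled symbols are the S-phase genes Tyms and Gins2.

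All KO controls are in the higher number series and all KO lesions in the lower one, so in KO mice series and tissue cannot be told apart except through the WT controls. With the series as a covariate 0 members passed limma's test (4.51% of all genes rose and 3.66% fell), and 1 member was higher at an unadjusted p under 0.05 (8.57% of all genes). The medians were then -0.13 in S-phase and 0.18 in mitotic members, with 19 of 42 differences above 0. The 2 calls became 16 (7 S-phase, 9 mitotic; 13.5% of all genes fell) without KO lesion 3 and 7 without KO control 3 (20.03% of all genes passed in either direction). They became 1 without KO control 2 (17.6% of all genes passed) or KO lesion 1 (17.4%) and 0 without KO control 1 (14.6%).

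On the control diet every member had a higher mean in KO than in WT mucosa, by small amounts, and no member passed the test. All 42 log2 differences were above 0, against 40.6% of all genes, with a median of 0.33 in mitotic and 0.20 in S-phase members. In limma's test 0 of 42 members and 0 of all 30704 genes passed, and 0 members had an unadjusted p under 0.05 (0.560% of all genes were higher and 1.53% lower by that rule). Prc1 had the largest difference, 0.50 ± 0.29 (SE): it lay at 7.40, 7.76 and 8.45 in WT controls (lowest, median, highest) and at 8.43, 8.67 and 7.95 in KO controls. The cyclin gene Ccne1, whose product starts S phase, lay at 6.08, 6.42 and 6.86 in WT controls and at 7.0, 6.87 and 6.33 in KO controls. Uhrf1, which takes part in the copying of DNA methylation behind the fork, lay at 7.09, 7.22 and 7.45 and at 7.62, 7.64 and 7.08. The groups overlapped in all 3 genes, and KO control 3 was the lowest KO control in 40 of 42 members, against 35.3% of all genes. Against the WT controls of the same, higher series the medians were 0.04 in mitotic and 0.06 in S-phase members. With all WT controls, leaving out KO control 1 gave an S-phase median of 0.05, leaving out KO control 3 one of 0.39, and leaving out KO control 2 a mitotic median of 0.18.

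The KO controls differed among themselves by class. KO control 1 was the highest of the 3 in 14 of 17 S-phase members and in 0 of 24 mitotic members, against 31.4% of all genes. KO control 2 was the highest in 24 of 24 mitotic and in 3 of 17 S-phase members, against 30.1% of all genes. A like split was seen in WT controls, where replicate 4 was the highest in 12 of 17 S-phase members (17.2% of all genes). Replicate 5 was the highest in 22 of 24 mitotic members (12.4% of all genes). These counts describe single arrays and were not tested. Means over the 5 measured B cell markers of 6 listed were 5.24 and 5.63 in KO controls 1 and 2. They were 4.69 in KO control 3 and 4.73 to 4.93 in WT controls. In each of these groups 2 of the 5 were at or under the median of all rows. Means over 4 of 6 listed germinal centre B cell markers were 6.77, 6.48 and 6.94 in KO controls 1, 2 and 3, and 6.60 to 6.86 in WT controls. The part of either list in the member levels was not tested.

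**Figure D4:**
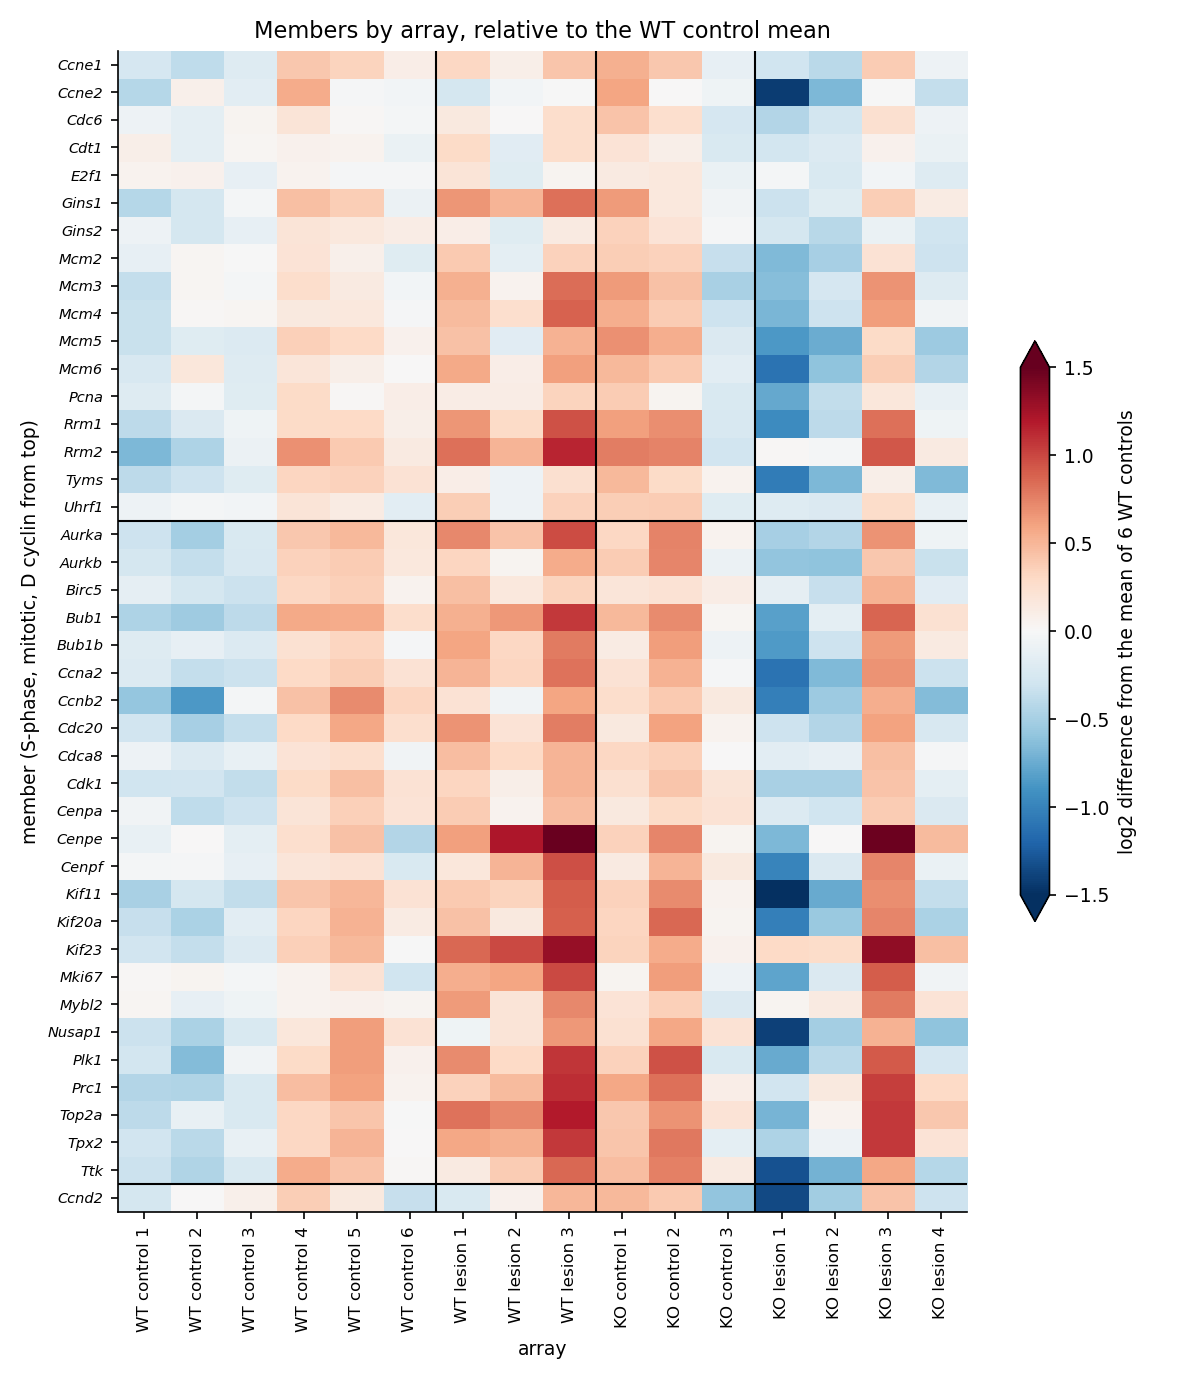
Log2 difference of each of the 42 members (rows, S-phase above mitotic above Ccnd2) from its mean over the 6 WT controls, in each of the 16 arrays (columns). KO lesion 3 is coloured like the WT lesions, with 41 of 42 members at their highest among the KO lesions (24.8% of all genes). KO lesion 1 holds the lowest KO lesion value of 31 members (22.5% of all genes).

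Between lesions, all 42 members had a lower mean in KO than in WT, and no member passed the test with all arrays (60.0% of all genes had a higher mean). The median log2 difference was -0.68 in mitotic and -0.51 in S-phase members, beside 0.04 over all genes, and the mitotic median was -0.44 without KO lesion 1. In limma's test 0 of 42 members were called, while 0.0586% of all genes were lower and 0.248% higher. At an unadjusted p under 0.05, 23 of 42 members were lower (14 mitotic, 9 S-phase), against 7.27% of all genes.

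The 4 KO lesions were not alike. KO lesions 1, 2 and 4 all lay below every WT lesion in 39 of 42 members, against 12.7% of all genes. With KO lesion 3 included this held for 1 of 42 members, against 3.91% of all genes. KO lesion 3 lay within or above the range of the WT lesions in 41 of 42 members, against 81.1% of all genes. It was also the highest KO lesion in 41 of 42 members, against 24.8% of all genes. The median SD over KO lesions was 0.66 in mitotic members and 0.40 in S-phase members, against 0.13 over all genes. Members varied more than all genes in the other groups too: the median SD over the 42 members was 0.31 in WT controls, 0.28 in WT lesions and 0.34 in KO controls, against 0.13, 0.11 and 0.11 over all genes. Without KO lesion 3, 19 of 42 members were lower in KO lesions (13 mitotic, 6 S-phase), against 3.29% of all genes. That array was left out because of its place among its group's values, so the 39 and the 19 describe the other 3 arrays and not the group. KO lesion 3 was not picked by the values of all genes, so the shares beside these counts are not a like comparison.

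The helicase subunit Mcm6 had the lowest p of the members between lesions. It lay at 8.40, 7.93 and 8.45 in WT lesions and at 6.72, 7.23, 8.20 and 7.39 in KO lesions, a difference of -0.88 ± 0.26 (SE, adjusted p = 0.17), and of -1.15 ± 0.20 (SE, adjusted p = 0.0048) without KO lesion 3. The value without that array, left out for its place among its group's values, describes the remaining arrays only. Gins1 lay at 6.08, 5.93 and 6.25 in WT and at 5.09, 5.23, 5.79 and 5.54 in KO lesions (-0.67 ± 0.22, SE, adjusted p = 0.22). It was the only member whose groups did not overlap with all arrays in, against 3.91% of all genes. Tyms differed by -0.66 ± 0.23 (SE, adjusted p = 0.25), with WT lesions at 7.25, 7.07 and 7.39.

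Ccna2, the cyclin of S and G2 phase, lay at 9.34, 9.16 and 9.65 in WT and at 7.72, 8.17, 9.51 and 8.51 in KO lesions. Its difference was -0.90 ± 0.31 (SE, adjusted p = 0.25), and -1.25 ± 0.23 (SE, adjusted p = 0.0077) without KO lesion 3, which again describes the remaining arrays only. Aurka, the kinase that matures centrosomes, lay at 8.35, 8.05 and 8.61 in WT and at 7.13, 7.19, 8.30 and 7.56 in KO lesions (-0.79 ± 0.29, SE, adjusted p = 0.26). In both, KO lesion 3 alone reached the WT range. Cdca8 differed by -0.39 ± 0.15 (SE, adjusted p = 0.27) and Mki67 by -0.75 ± 0.28 (SE, adjusted p = 0.28).

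**Figure D5:**
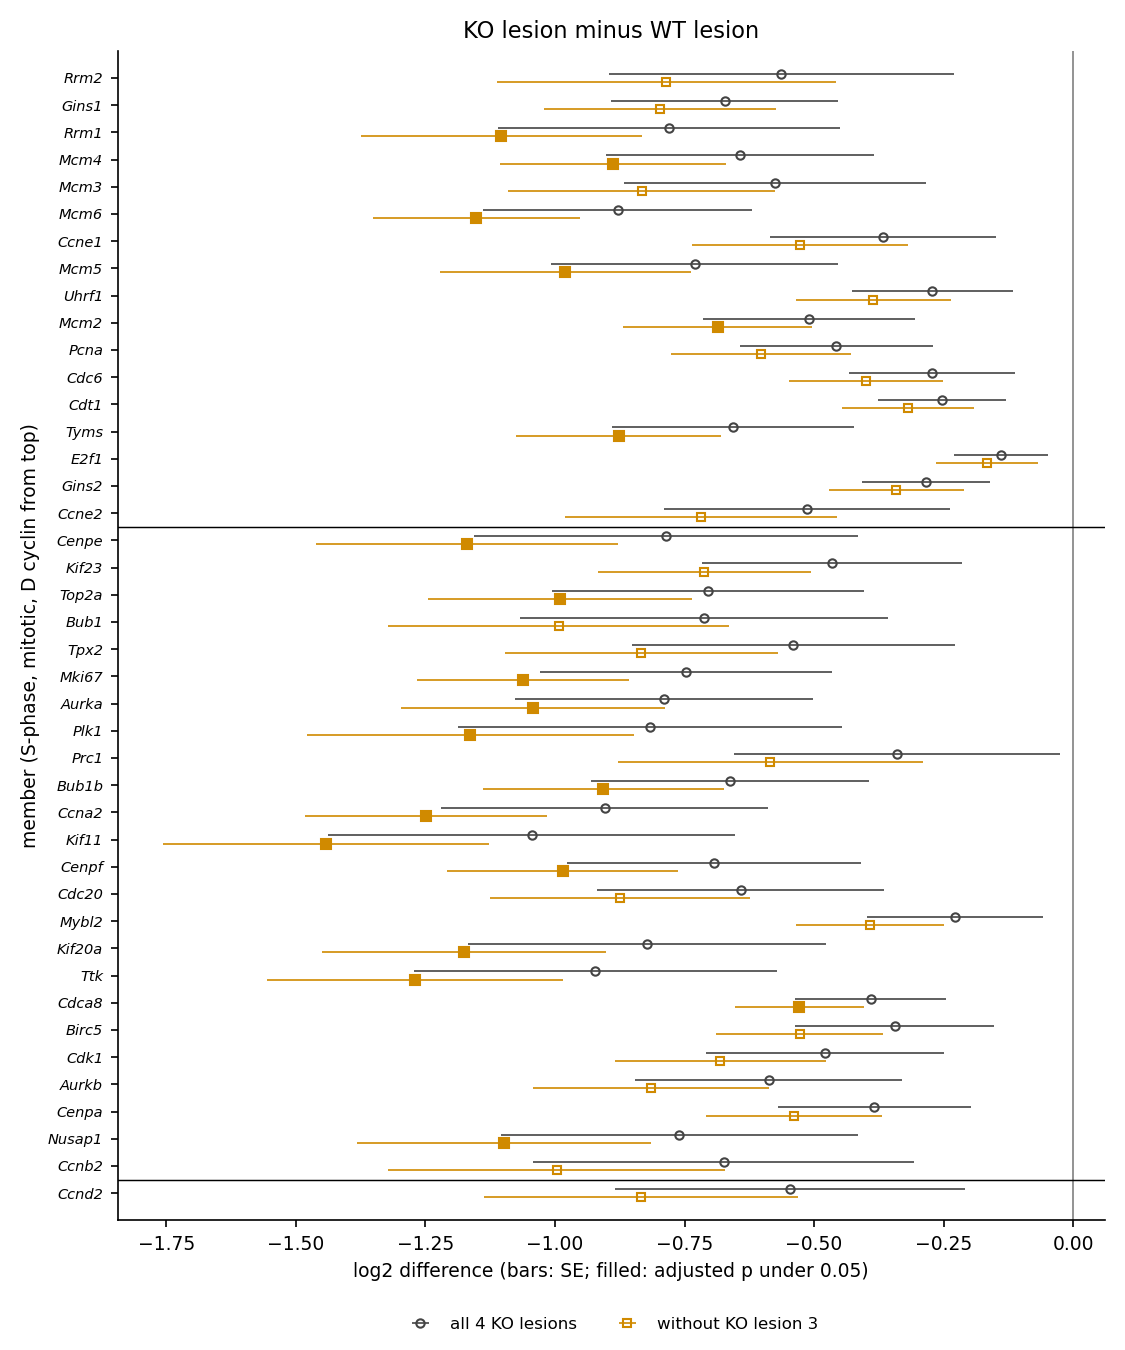
Log2 difference, KO lesion minus WT lesion, of the 42 members with all 4 KO lesions (circles) and without KO lesion 3 (squares); bars are SE and filled symbols passed an adjusted p under 0.05. All circles lie below 0 and none is filled, and 19 squares are filled. KO lesion 3 was left out because of its place among its group's values, so the squares describe the remaining arrays only.

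Markers of several other cell types moved with these arrays. The mean over all 7 listed neutrophil genes lay between 4.60 and 4.94 in controls of both genotypes, where 4 of the 7 were at or under the median of all rows. It was 8.10, 8.04 and 7.33 in WT lesions and 9.37, 10.1, 8.47 and 9.88 in KO lesions. The lowest mean of each lesion group was in array 3, the array with the highest member levels. Ly6g, 1 of the 7, had its lowest KO lesion value in array 4 (10.6), with 11.7 in array 3. Crypt stem and progenitor markers (10 of 11 measured) had means of 7.43 to 7.67 in controls of both genotypes, 7.39, 6.98 and 7.46 in WT lesions and 6.80, 7.17, 7.39 and 7.02 in KO lesions. Within this list Cd44 went the other way, with group means of 8.77 in control and 9.59 in lesion for WT. For KO its means were 8.67 and 10.2. Olfm4, at a level under the median of all rows, was also higher in KO lesions (4.39 and 4.65). The other markers had lower means in lesions in both genotypes. Means over 7 macrophage genes were 5.77 to 6.20 in all controls and 7.68 to 8.19 in all lesions, and over 5 of 6 fibroblast genes 5.81 to 6.31 and 7.13 to 7.69. Means over 9 colonocyte genes were 10.5 to 10.8 in controls and 9.56 to 10.5 in lesions, and over 7 goblet cell genes 11.97 to 12.19 and 10.94 to 11.64. Macrophage and colonocyte means were also lowest in array 3 of each lesion group, at 7.68 and 9.61 in WT and 7.77 and 9.56 in KO. The mean over 5 of 5 endothelial markers was highest in array 3 of each lesion group. It was 6.23 in WT and 6.51 in KO, against 5.70 to 6.01 in the other lesions. Of these markers Tie1 went the other way, with its highest value in array 1 of each lesion group (5.71 in WT and 5.80 in KO). The part of these cell populations in the member differences was not tested.

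The estimated change from control to lesion was lower in KO than in WT mice for each of the 42 members, but no member passed the test of that difference (61.9% of all genes had an interaction above 0). In limma's test 0 of 42 members and 1 of all genes (0.00326%, higher) passed. At an unadjusted p under 0.05, 30 members were below 0 (19 mitotic, 11 S-phase), against 5.31% of all genes. The median interaction was -0.94 in mitotic and -0.69 in S-phase members. All KO controls are in the higher number series, and with the series as a covariate these medians were -0.68 and -0.56. Without the covariate the interaction was -1.12 ± 0.35 (SE) for Mcm6, -0.92 ± 0.30 for Gins1, -1.16 ± 0.39 for Aurka and -1.37 ± 0.48 for Ttk, each with an adjusted p of 0.41. Without KO lesion 3, 10 members passed (8 mitotic, 2 S-phase; 0.775% of all genes), among them Mki67, Top2a, Mcm6 and Tyms. As between lesions, that array was left out because of its place among its group's values, so these 10 describe the remaining arrays and not the groups.

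S-phase and mitotic members were compared by the change in their mean levels, since levels of different array rows cannot be set against each other. In WT mice the S-phase mean changed by 0.29 and the mitotic mean by 0.57 from control to lesion, so that the S-phase change minus the mitotic change was -0.28. This value was -0.39 among lower-series arrays and lay between -0.35 and -0.23 with each array left out in turn. WT controls of the higher series minus those of the lower series gave -0.23 (0.31 for S-phase and 0.54 for mitotic members). Control arrays alone thus differed in the same direction. In KO mice the changes were -0.42 and -0.39, and their difference of -0.03 took either sign when single arrays were left out (-0.12 to 0.12). With the number series as a covariate, a fit added after seeing the data, it was -0.26 in KO and -0.39 in WT mice. Between lesions the KO minus WT difference was -0.50 for S-phase and -0.64 for mitotic members. No p is given for these means, because the members were chosen as sets.

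Other replication genes were taken from a list of 43, of which 40 were measured, and had median differences of 0.14 in WT mice and -0.39 in KO mice. In WT mice Prim2, a primase subunit, rose by 0.72 and Rfc2, a clamp loader subunit, fell by 0.37, and these were the 2 calls in the list (6.98% of all genes rose and 8.37% fell). In KO mice 10 of 40 (12.1% of all genes) fell, among them Prim1 (-1.02), Dtl (-0.83), Rfc2 (-0.69) and Tk1, which salvages thymidine (-0.62), and 0 rose. Of 50 other mitotic genes, 2 rose in WT mice, a share near that of all genes, Cep55, which acts in the final cut between daughter cells (1.02), and Cks2 (0.37), and 0 fell. In KO mice 7 of the 50 fell, again near the share of all genes, among them Ckap2 (-1.13), Cdca5 (-0.95), Pbk (-0.93) and Kif18a (-0.85), and Cks2 rose. As for the members, these counts moved with the controls used. With the replicate block 12 of 40 and 35 of 50 (8.02% of all genes) rose in WT mice, whereas in KO mice 0 of either list (3.66% of all genes) fell and 1 of 40 and 2 of 50 (4.51% of all genes) rose once the series was a covariate.

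The calls among regulators and inhibitors are few and are to be read against the shares of all genes. Of all genes, 6.98% rose and 8.37% fell in WT mice, and 8.98% rose and 12.1% fell in KO mice. Among 18 regulators of G1, the repressive factor E2f7 rose by 0.47 in WT mice, and the pocket protein gene Rbl2 (-0.60) and the G1 kinase gene Cdk6 (-0.56) fell. In KO mice Rbl2 (-0.74), Rbl1 (-0.74), Cdk4 (-0.74) and Cdk6 (-0.53) fell and 0 rose. Of 19 inhibitors of the cycle, 3 fell in WT mice: Cdkn1b, which encodes the kinase inhibitor p27 (-0.60), Tob1 (-0.55) and Cdkn2b (-0.43). In KO mice Btg1 (0.75), Gadd45b (0.69) and Btg2 (0.67) rose, and Wee1, the kinase that holds Cdk1 inactive (-0.88), and Cdkn2c fell. With the number series as a covariate, Rbl2 was the 1 regulator of 18 that fell in KO mice (-0.79), while Cdk6 did not pass (limma, adjusted p = 0.12). Of the 19 inhibitors 1 rose and 1 fell in that fit, where 4.51% of all genes rose and 3.66% fell.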

How the data were processed

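RNA of 16 colon mucosa samples was profiled on Affymetrix arrays. The deposited values are log2 expression, made by the authors with RMA (background correction, quantile normalisation and probe summary) and Affymetrix Power Tools 1.16.1 per the submitters' processing notes. The genome build is not given in the sources used here. Near background RMA values understate differences, and no detection calls come with them; the number of arrays limits the precision. Array medians lay between 4.90 and 5.05.

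Of 72688 rows, the probe-to-gene table listed 32750: 31261 with 1 symbol, 1489 with several. Symbols were updated through RefSeq (GRCm38.p6), and for the 442 genes with several rows the row with the highest mean was used, which left 30704 genes. Within-group correlations of 0.980 to 0.992 showed no duplicate arrays.

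Tests used limma 3.58.1 (R 4.3.3): 1 fit of 4 group means over 16 arrays, two-sided, with Benjamini-Hochberg adjustment over all genes and a threshold of 0.05. The script was tested on simulated data. Groups came from the titles. Same-numbered arrays deviated together in the WT comparison (r of 0.33, 0.19 and 0.26 over the blocked arrays, and 0.35, 0.17 and 0.097 over all WT arrays) and between lesions (r of 0.47, 0.36 and 0.52). They did not in KO mice (-0.18 to -0.28) or between controls (-0.22 to -0.38). No label links arrays of equal number, so whether they are pairs is not known, and paired results are given beside the unpaired ones. The pairing comes from the titles' replicate numbers and this check only.

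Members, gene lists, marker lists, motifs and tests were chosen with earlier results of these data known. Array values are given for Mki67, Pcna, Ccnd2, each called member, and the 3 S-phase and 3 mitotic members with the lowest p per comparison (some are repeated only by their difference); other pathway genes are named if called, up to 4 per list and comparison with the largest change. Alternatives were the replicate block, the number series, the arrays in the fit, the row per gene, a filter on dim genes, array scaling, the variance model and leaving out each array.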

Additional observations from a re-analysis of the deposited data

Results flagged for a closer look

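Of the 100 gene and group combinations looked at, 3 had 1 array far from the rest of its group, where chance gives about 1 in 20. Kif23 was 9.06 in KO lesion 3, and 8.002 to 8.18 in KO lesions 1, 2 and 4. Mcm4 was lowest in WT control 1 (7.203), where the others ranged from 7.52 to 7.69. Wee1 was highest in WT control 3 (7.942), where the others ranged from 7.45 to 7.62.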

How the results depend on the processing

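Members called in WT mice, 6 with all arrays, came to 29 with the replicate block, 12 with only the groups compared in the fit, 13 with the number series as a covariate and 1 to 6 with an array left out. In KO mice the 2 calls with all arrays (21.1% of all genes passed) became 0 with the replicate block (2.79%) and 1 with only the groups compared (15.3%). They became 0 with the series as a covariate (8.18%) and 4 without dim genes (31.7%). With trend, robust and array weights they became 11 (27.6%), and with an array left out 0 to 16 (14.6% to 22.8%). Between lesions the count of 0 became 1 with trend and weights (2.15% of all genes) and up to 19 with an array left out (5.52%). The interaction count of 0 became up to 10 with an array left out (1.68%). The replicate block, or pairing, changed no other count of member calls. On the control diet the count stayed 0 under the alternatives run. The differences between S-phase and mitotic members moved by less than the pooled SD between arrays. In KO mice the value of -0.03 ranged from -0.12 to 0.12 with an array left out and was -0.26 with the series as a covariate, a move close to that SD of 0.23; this covariate fit of the means was chosen after seeing the data. For single genes, 1090 calls or non-calls were as before, 177 calls were lost and 33 gained. The causes of these shifts were not tested. All 42 members had means above the median of all rows, and no detection call was at hand.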
